A study of Bos taurus with 2 samples.

Results

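The miR-2284 family is a group of closely related microRNAs (miRNAs) first named in cattle. Its members were taken here as every row of the deposited miRNA table whose name begins with bta-miR-2284 or bta-mir-2284, whatever the letter, copy number, arm or suffix. These were 60 of 2271 rows, and they held 43 of 2085 distinct sequences. Rows with an equal sequence were counted as a single sequence and their reads were summed. Small RNA was sequenced from lungs of neonatal cows in 2 libraries, labelled Collapsed and Normal for the phenotype of the lung, and each library was 1 pool. The series text gives 4 cows to a pool and 500 ng of RNA to a sample, with cloned and normal animals, and the sample labels do not say which pool came from the clones. The sources used here give neither breed nor sex nor exact age. Reads in the table numbered 2822876 for collapsed and 4550911 for normal lungs.

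A miRNA is cut from a hairpin precursor, and either arm of the hairpin (5p or 3p) can give the mature strand. The strand guides a silencing complex to messenger RNAs, mainly by pairing through its seed, taken here as bases 2 to 8 from the 5′ end. The miR-2284 family is among the largest miRNA families annotated in cattle, with many copies spread over the genome, and little is established about its targets in lung. Because members are so alike, short reads can match several copies, and the authors' table divides reads between rows. Of the 60 rows, 23 held whole read numbers in the collapsed-lung library and 28 in the normal-lung library, within 0.05 reads. The separate values of near-identical members are therefore uncertain. Names ending in p3 or p5 are taken to mean the 3p or 5p arm, and suffixes such as R+1 or 1ss as differences at an end or at a base from the named miRNA.

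The sequences that carry the results are those of the 10 members with a mean of at least 10 RPM (reads per 1000000 reads of the library) over both libraries, called measured below. They are printed as in the table, 5′ to 3′, with the seed in capitals. The first 5 carry the AAAAGTT core described next or, for miR-2284w_R-1, face a named 3p arm, and the 5 after them are named as 3p arms.
miR-2284x_R+1: tGAAAAGTtcgttcgggttttt
miR-2284ab_R+1: tAAAAGTTtggttgggtttttc
miR-2284aa_R+1: aAAAAAGTttgtttgggttttt
miR-2284y: aAAAGTTCgttcgggtttttc
miR-2284w_R-1: aAGAGTTTgttcgggtttct
miR-2284w-p3: aAAACCTCaatgaactctttgg
miR-2284z-2-p3: aAACCCAGatgaactttttggc
miR-2284t-3p: aAACTCGAatgaatgttttggc
miR-2284f-p3_1ss6CA: aAAACACGaacaaactttt
miR-2284aa-3-p3_1ss1AG, also listed as miR-2284z-6-p3_1ss8AG: gAAATCCGaacgaactttttgg

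Members of a miRNA family are named for their likeness in sequence, so the letters they share are given as a description. The letters AAAAGTT occurred in 21 of 43 members (48.8%), against 26.7% of the 60 sequences of the related miR-2285 family and 1.27% of the 2042 sequences outside the miR-2284 family. The reverse complement, AACTTTT, occurred in 11 members (25.6%), against 36.7% of the miR-2285 sequences and 5.29% of all sequences outside. Neither run of letters is thus particular to miR-2284. Both motifs were searched on the printed strand. No sequence held both, and 11 members held neither. Over all 2085 sequences of the table the shares were 2.25% and 5.71%. Members were also rich in A and T, with a median of 65% (50 to 81.0%) against 67.4% in the miR-2285 family and 52.4% over all sequences outside. Their lengths ran from 16 to 23 nt, and 39 of the 43 were 20 to 22 nt long. So were 45 of the 60 miR-2285 sequences and 1191 of the 2042 sequences outside the miR-2284 family.

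Small shifts of the core gave different seeds. AAAAGTT began at base 1 in 9 members, at base 2 in 7 and at base 3 in 5. Thus miR-2284y (seed AAAGTTC), miR-2284ab (AAAAGTT) and miR-2284x (GAAAAGT) carry the same 7 letters behind different first bases. The 43 members had 25 seeds, and 19 of these belonged to a single member. Seeds and core positions were read from the sequences as printed. A suffix that marks another 5′ end or a base within the seed can thus give another seed than the named miRNA has, as for miR-2284f-p3_1ss6CA. Seed AAAGTTC had 8 members, AAAAGTT had 7 and AAAAAGT had 3. Of the 25 seeds, 19 also stood on sequences outside the family, 83 in number, of which 58 were predicted miRNAs (names beginning PC) and 21 were members of the miR-2285 family. The outside sequence with the most reads was miR-494_R+1, a conserved miRNA that shares GAAACAT with the scarce miR-2284t-5p_L+1. Its level was 928 RPM in collapsed and 927 RPM in normal lungs.

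RefSeq's gene table of another assembly (ARS-UCD2.0) was used for names and neighbours only, and no coordinates are given because the submitters' processing notes name bosTau8. It lists 43 MIR2284 genes on 23 chromosomes, and 25 of the 26 letters in the miRNA table have an entry there. Of the 43 genes, 27 lie within the span of a protein-coding gene. MIR2284X and MIR2284I both lie within TIAM1, which encodes an activator of the GTPase Rac. MIR2284W lies within DOCK11, MIR2284AB within AFF1, MIR2284T within SPON1, MIR2284Z-2 within SOS1, MIR2284AA-3 within PIK3R5 and MIR2284Z-6 within PLEKHA5. MIR2284Z-6 also lies within MIR2285Y, and MIR2284H, MIR2284Y-2 and MIR2284Y-4 likewise lie within MIR2285 genes. The table gives no strand and no exons, so intronic and exonic positions were not separated. The Y and Z members have 7 genes each and the AA members 4. Reads of sequences on several rows, such as miR-2284y and miR-2284aa_R+1, therefore cannot be assigned to a single locus. miR-2284z-2-p3 stands on a single row under the name of a single copy. Its reads are not whole numbers, at 122.4 in collapsed and 209.6 in normal lungs, so they cannot be assigned to that copy with certainty either.

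miR-2284 reads were a small part of both libraries, and a smaller part in the collapsed-lung library. With exact binomial 95% intervals, the family took 0.0847% of reads in collapsed lungs (0.0813 to 0.0881%) and 0.120% in normal lungs (0.117 to 0.124%). The summed level was 846 RPM in collapsed and 1204 RPM in normal lungs, a ratio of 0.703 (exact conditional binomial 95% interval 0.670 to 0.738), or 1.42-fold lower. All intervals and floors speak to counting error alone. They allow neither for PCR copies of a molecule, which are counted as separate reads, nor for the uncertain division of reads between rows. With 1 pool per group there is no measure of the spread between cows, no test was run, and every difference below is between 2 libraries. In RNA from whole lung, fewer cells that make a miRNA and less of it per cell cannot be told apart. Most of the difference lay in miR-2284x, and without it the family's ratio was 0.923 (0.851 to 1.00). That value includes the one sequence called higher, described below. Without both, the other 41 members stood at 292 RPM in collapsed and 359 RPM in normal lungs, a ratio of 0.814 (0.749 to 0.887).

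The lung label was set against miRNA markers of its cell types, each list summed in RPM. Epithelial miR-200 members and miR-141 stood at 7260 in collapsed and 7855 in normal lungs, endothelial miR-126 at 48683 and 46324, and smooth muscle miR-143 and miR-145 at 139572 and 153239. Red cell miR-451 and miR-486 stood at 2482 in collapsed and 2593 in normal lungs. Liver miR-122 was at 17.4 and 34.3, striated muscle miR-1 and miR-133a together at 46.4 and 58.4 with no row for miR-206, and the brain markers at 30.8 and 20.2. The 3 markers of multiciliated airway cells were lower in the collapsed-lung library, at 2490 against 7271, and each of the 3 was lower there. The 4 leukocyte markers were also each lower in the collapsed-lung library, at 2370 against 2984 together. So was each marker with a row in the smooth muscle, red cell, striated muscle and liver lists. The part of any list in the miR-2284 values was not tested.

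miR-2284x was the main member in both libraries. It had 1436 reads in the collapsed-lung library and 3815 in the normal-lung library, which is 509 RPM and 838 RPM. These were 60.1% of the family's reads in collapsed and 69.6% in normal lungs. The ratio was 0.607 (0.571 to 0.645), or 1.65-fold lower, short of the 2-fold difference used for a call. Of all members it had the narrowest interval. The same seed, GAAAAGT, stood on 1 further member, miR-2284b_L+2R-1_1ss14TC, with 2.50 reads in collapsed and 9.54 in normal lungs.

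**Figure D1:**
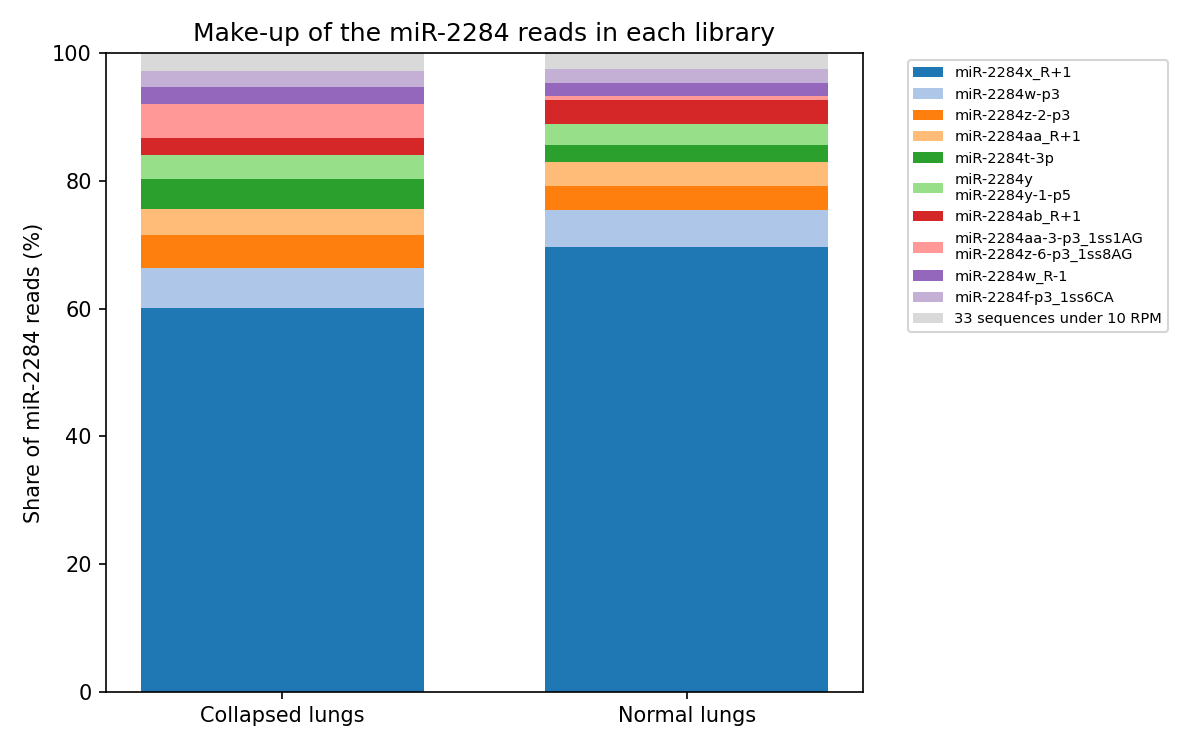
Share of the miR-2284 reads (%, vertical axis) taken by each measured sequence in the collapsed-lung library (left) and the normal-lung library (right), with the 33 sequences under 10 RPM in grey. miR-2284x holds 60.1% and 69.6%, and the sequence named miR-2284aa-3-p3_1ss1AG and miR-2284z-6-p3_1ss8AG holds 5.38% and 0.589%.

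Among the other measured members with the AAAAGTT core, miR-2284ab_R+1 was lower in collapsed lungs, and miR-2284aa_R+1 and miR-2284y differed less by value. miR-2284ab_R+1 had 63 reads (22.3 RPM) in the collapsed-lung library and 208 reads (45.8 RPM) in the normal-lung library, 2.05-fold lower (1.54 to 2.76). It was the only measured member called lower, a call being a ratio of at least 2 or at most 0.5 with an interval that leaves out 1. The call rests close to the threshold and was lost when 5 reads were added to both libraries, at a ratio of 0.514. miR-2284aa_R+1, spread over 7 rows of equal value, had 35.1 RPM in collapsed and 44.6 RPM in normal lungs, a ratio of 0.786 (0.612 to 1.01). miR-2284y, summed with miR-2284y-1-p5 over 7 rows, had 30.9 RPM in collapsed and 38.9 RPM in normal lungs, a ratio of 0.796 (0.606 to 1.03). Both intervals include 1.

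The 21 members with AAAAGTT summed to 613 RPM in collapsed and 985 RPM in normal lungs, a ratio of 0.623 (0.589 to 0.658). Without miR-2284x the other 20 stood at 104 and 147 RPM, a ratio of 0.711 (0.619 to 0.818). By where the core begins, the ratio was 0.787 (0.606 to 1.02) at base 1, 0.558 (0.428 to 0.721) at base 2 and 0.619 (0.583 to 0.656) at base 3. Most reads at base 2 were those of miR-2284ab_R+1 and most at base 3 those of miR-2284x, so these sums largely repeat those members. The interval of the base 1 group overlaps both of the others.

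Of the 5 measured members named as 3p arms, 3 lay below a ratio of 1, miR-2284t-3p lay above it, and a single sequence stood far higher in collapsed lungs. miR-2284w-p3, the member with the next highest level after miR-2284x, had 149 reads (52.8 RPM) in collapsed and 318 reads (69.9 RPM) in normal lungs, a ratio of 0.755 (0.618 to 0.921). miR-2284z-2-p3 stood at 43.4 RPM in collapsed and 46.1 RPM in normal lungs (0.941, interval 0.743 to 1.18). miR-2284f-p3_1ss6CA stood at 21.2 and 25.4 RPM (0.832, interval 0.600 to 1.15). miR-2284t-3p was higher in collapsed lungs by value, at 40.0 RPM against 32.3 RPM, with an interval of 0.961 to 1.60 that includes 1. Of these 4, miR-2284w-p3 alone had an interval that left out 1.

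The exception was the sequence listed both as miR-2284aa-3-p3_1ss1AG and as miR-2284z-6-p3_1ss8AG. By these suffixes it differs by a base from both named miRNAs, at base 1 from aa-3 and at base 8, within the seed, from z-6. Summed over both rows it had 129 reads (45.6 RPM) in the collapsed-lung library and 32.3 reads (7.09 RPM) in the normal-lung library, 6.42-fold higher (4.39 to 9.90). It held 5.38% of the family's reads in collapsed and 0.589% in normal lungs. The reads came as 72 and 27.1 under the aa-3 name and as 56.6 and 5.14 under the z-6 name, collapsed before normal lungs in both. Both rows were thus higher in the collapsed-lung library by value, and the sources used here do not say how reads were divided between the names. With the higher row of each sequence in place of the sum, the ratio was 4.28. Without rows with a base substitution this sequence is left out, and the family's higher calls number 0.

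The same seed, AAATCCG, stood on 2 further sequences of the table, both predicted miRNAs that differ from this member by a single edit at the 3′ end. They are shown because they share the member's seed and nearly all of its bases.
PC-3p-3264_123: gAAATCCGaacgaactttttgga
PC-3p-30406_16: gAAATCCGaacgaactttttga
PC-3p-3264_123 had 129 reads in the collapsed-lung library and 7 in the normal-lung library. PC-3p-30406_16 had 14 and 2 reads, a ratio of 11.3 (2.59 to 102). All 3 sequences with this seed were higher in collapsed lungs. Together they stood at 96.2 RPM in collapsed and 9.07 RPM in normal lungs, a ratio of 10.6 (7.68 to 15.2). That sum includes the member already called higher. The 2 predicted sequences alone stood at 50.7 RPM in collapsed and 1.98 RPM in normal lungs, a ratio of 25.6 (13.1 to 57.2). Sequences this alike do not count as separate observations. No table sequence with another seed lay within 2 edits of the member.

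**Figure D2:**
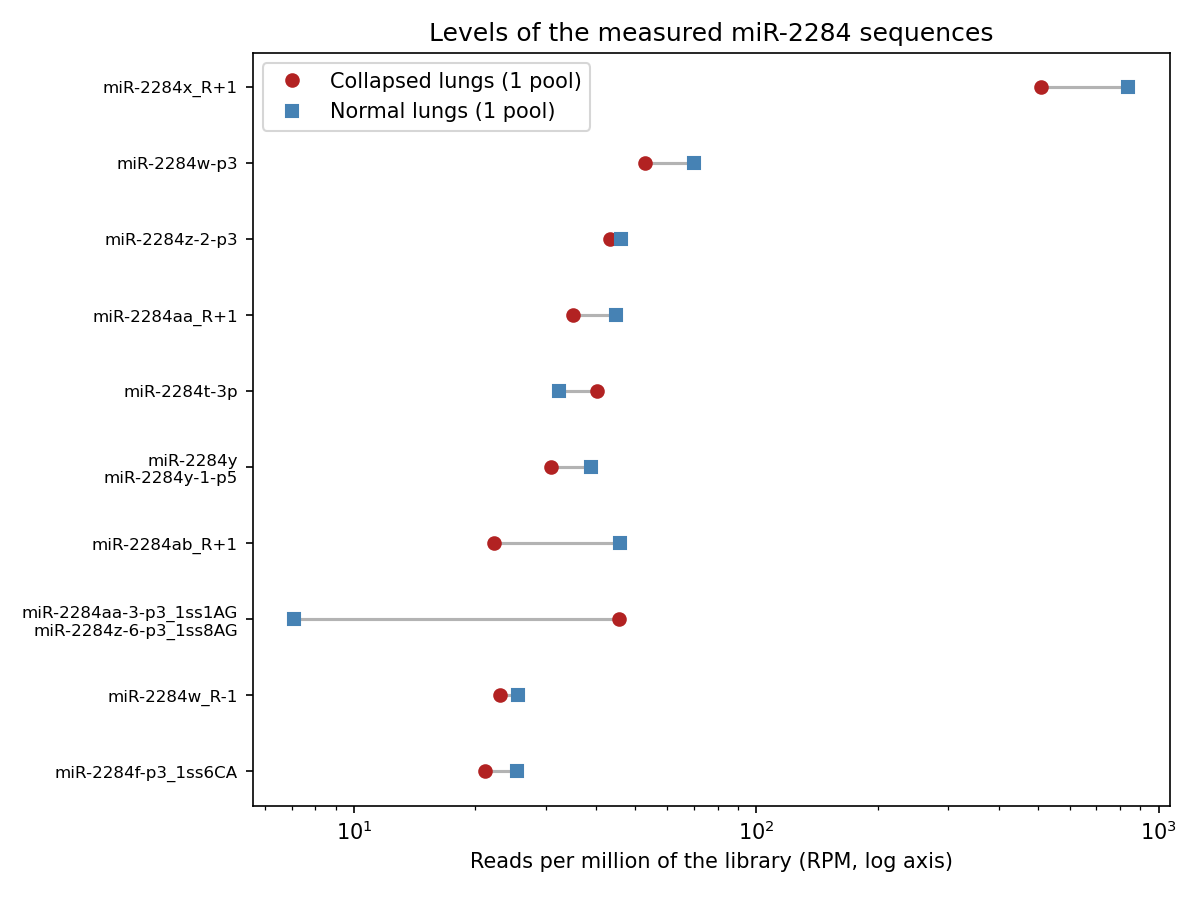
Level in RPM (horizontal log axis) of each measured sequence in the collapsed-lung library (circles) and the normal-lung library (squares), 1 pool each. miR-2284x lies above the others at 509 and 838 RPM, and the sequence named miR-2284aa-3-p3_1ss1AG and miR-2284z-6-p3_1ss8AG lies at 45.6 and 7.09 RPM.

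Arms were paired by name, copy number included, so members without a copy number were not set against numbered 3p rows. Of the hairpins paired this way, 4 had reads enough to compare, and in each the same arm led in both libraries. Among the unpaired aa members, the row of miR-2284aa-3-p3_1ss1AG stood at 25.5 RPM in collapsed and 5.96 RPM in normal lungs. This leaves out the reads of the same sequence under the z-6 name. miR-2284aa_R+1 stood at 35.1 and 44.6 RPM, but it is spread over several rows, so no arm share was taken. miR-2284w gave mainly its 3p arm, 69.6% of its reads in collapsed (exact binomial 95% interval 63.0 to 75.7%) and 73.3% in normal lungs (68.8 to 77.4%). Its other arm, miR-2284w_R-1, stood at 23.0 RPM in collapsed and 25.5 RPM in normal lungs, a ratio of 0.903 (0.656 to 1.23). miR-2284t gave 96.6% of its reads from the 3p arm in collapsed (91.5 to 99.1%) and 91.3% in normal lungs (85.8 to 95.2%). The opposite arm led in miR-2284ab, whose p3 row had 0 of 63 reads in collapsed lungs and 2.83 reads against 208 in normal lungs. The 0 allows a 3p share of up to 5.69% (exact upper bound), and the share in normal lungs was 1.34% (0.294 to 4.10%). miR-2284f gave 99.5% of its reads from the 3p arm in collapsed and 99.9% in normal lungs. Other hairpins listed with both arms, such as miR-2284ac, miR-2284b and miR-2284h, had too few reads to compare. For each of the 4 hairpins with values the intervals of the libraries overlapped.

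Of the 33 members below the measured level, most were near the limit of detection. A member without reads can stand at up to 1.06 RPM in the collapsed-lung library and up to 0.659 RPM in the normal-lung library, the level of 3 reads. In all, 35 of the 43 members had reads in collapsed and 41 in normal lungs. Over all 2085 sequences of the table these numbers were 1590 and 1776, and the normal-lung library was the deeper. Fewer than 3 reads in both libraries were seen for 21 members, among them fractions of a read left by the division between rows. The highest of the 33 was the 21-nt sequence of miR-2284aa, at 7.57 RPM in collapsed and 7.68 RPM in normal lungs, followed by miR-2284v_R+2_1ss17GT, at 4.72 and 3.81 RPM. miR-2284ac-p3 had 0 reads in collapsed and 7 in normal lungs. Its ratio has an upper interval bound of 1.12, so a difference was not detectable at this depth. Together the 33 stood at 23.4 RPM in collapsed and 30.2 RPM in normal lungs (0.776, interval 0.566 to 1.04). None of the 33 had a ratio of at least 4 or at most 0.25 with an interval that left out 1.

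Set against all sequences of the table, the measured members lay lower, and the number of calls was too small to read. Of the 10 measured members 1 was called higher, where 3.79% of the 449 measured sequences of the table were called higher. Also 1 of the 10 was called lower, where 3.34% of the 449 were. The ratio was below 1 in 8 of the 10 and in 187 of the 449. The interval lay wholly below 1 in 3 of the 10, against 25.6% of the 449, and wholly above 1 in 1 of the 10, against 35.9%. The median log2 ratio was -0.30 over the 10 (quartiles -0.39 and -0.10) and 0.09 over the 449 (quartiles -0.20 and 0.36). Scaling to the median ratio of measured rows lowers all log2 ratios by 0.09, which leaves these positions relative to the table as they are.

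**Figure D3:**
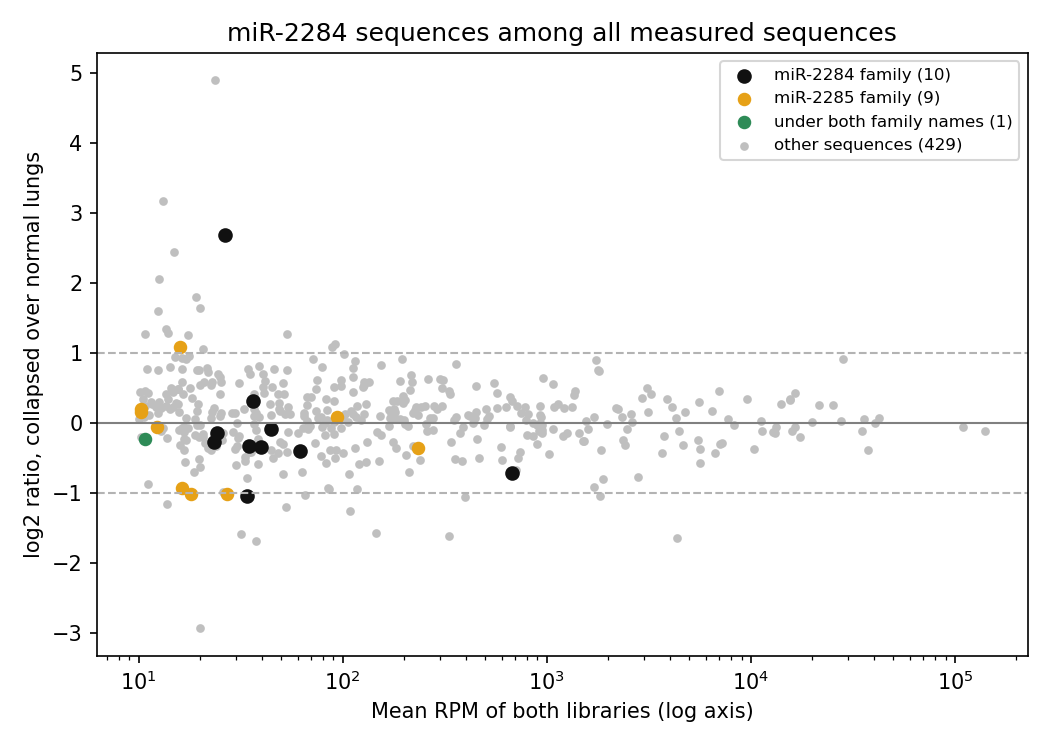
log2 ratio of collapsed over normal lungs (vertical axis) against the mean RPM of both libraries (horizontal log axis) for the 449 measured sequences, with dashed lines at 2-fold. Of the 10 miR-2284 sequences (black) 8 lie below 0, and 1 lies above the upper dashed line at 2.68. The sequence that reaches the measured level when reads under miR-2284 and miR-2285 names are summed is drawn apart.

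The miR-2285 family, a related bovine family with 60 sequences on 87 rows, is the most similar group in the table. It shares 2 sequences and 7 seeds with the miR-2284 family. It stood at 503 RPM in collapsed and 599 RPM in normal lungs, a ratio of 0.841 (0.788 to 0.897). The interval of the miR-2284 family, 0.670 to 0.738, does not overlap it. Without miR-2284x it does, at 0.851 to 1.00, and also without both miR-2284x and the sequence called higher, at 0.749 to 0.887. Of 9 measured miR-2285 sequences 1 was called higher and 2 lower, and their median log2 ratio was -0.05. The sequence of miR-2284e-p3_1ss16AT also stands under miR-2285e and miR-2285c names, and summed over all 3 names it had 9.90 RPM in collapsed and 11.6 RPM in normal lungs (0.851, interval 0.519 to 1.37).

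The authors' deposited table lists 78 of its 2271 rows as different, and 3 of the 60 miR-2284 rows, too few to read as a trait of the family. In the authors' deposited table miR-2284ab_R+1 was down, at a log2 fold change of -1.16. In the authors' deposited table both miR-2284aa-3-p3_1ss1AG and miR-2284z-6-p3_1ss8AG, rows of the same sequence, were up, at a log2 fold change of 1.97 each. The equal value arises because the normalized values of the z-6 row are those of the aa-3 row. The deposited normalized values departed by over 2% from the row's reads divided by the library's factor in 10 of the 60 rows, 6 of which were miR-2284y.

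**Figure D4:**
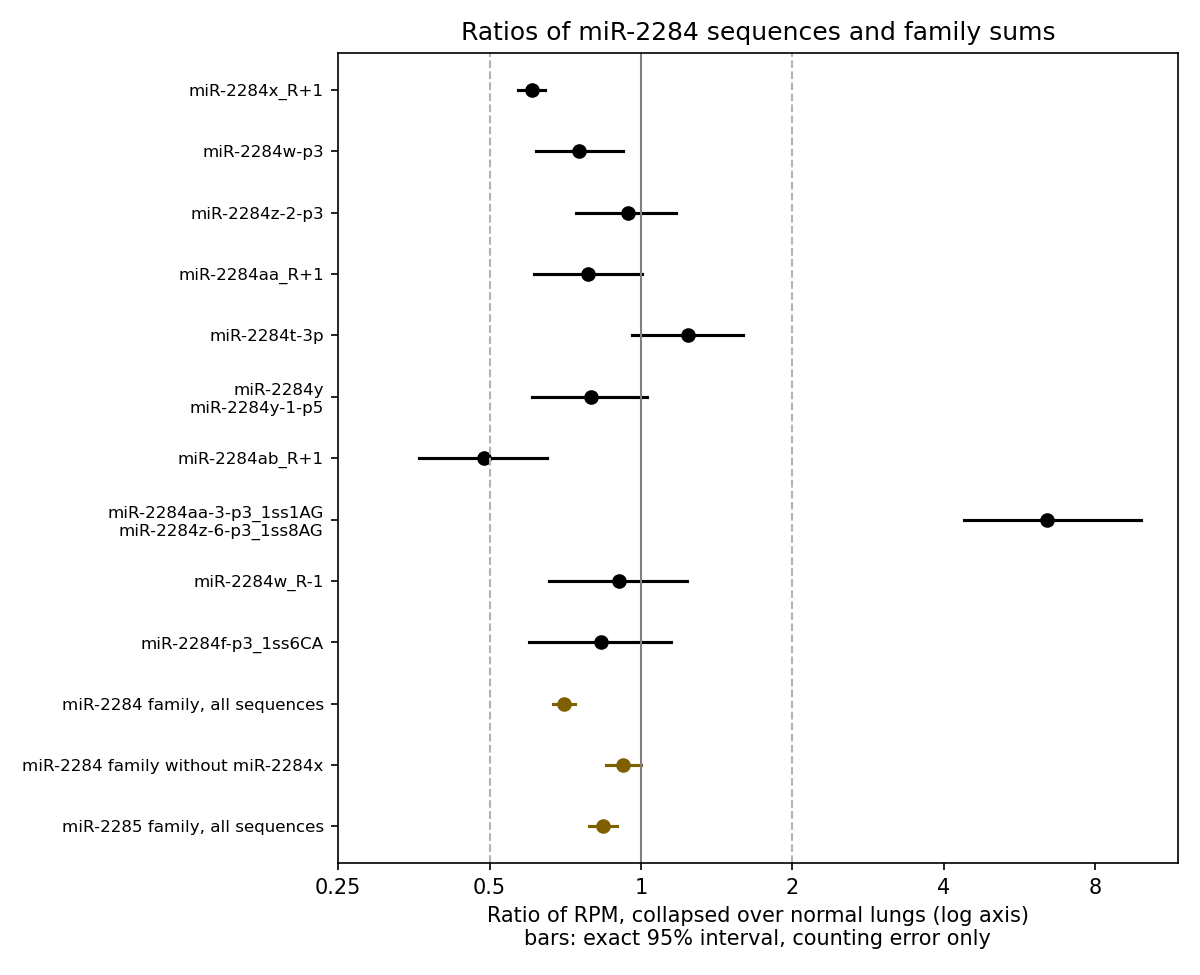
Ratio of RPM, collapsed over normal lungs (horizontal log axis), for the 10 measured sequences (black) and for summed families (brown), with exact 95% intervals for counting error and dashed lines at 0.5 and 2. miR-2284ab_R+1 lies at 0.487, the family sum at 0.703, the family without miR-2284x at 0.923 and the miR-2285 family at 0.841.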

How the data were processed

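Small RNA libraries were made from total RNA with a TruSeq small RNA kit, per the labels' protocols. The genome build was bosTau8, per the submitters' processing notes. The sources used here name no aligner, trimming or miRNA release. The authors deposited raw read counts per row, partly fractional, per the file headers. Normalized reads, as deposited, are a signal that equals the reads divided by 0.823 in the collapsed-lung and 1.21 in the normal-lung library. Further columns, per the file headers, hold the authors' fold change (a ratio), its log2 value and p-values from the reads of both libraries, and these p-values are not used.

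Commas within numbers were removed, and 2 emptied lines were not analysed here. Reads were scaled to 1000000 reads of the table (RPM) and summed over rows of equal sequence. Ratios are collapsed over normal lungs with an exact conditional binomial 95% interval on reads rounded to whole numbers, with 0.5 read added to both libraries where either had none. Sequences with a mean of at least 10 RPM were measured. A call needed a ratio of at least 2 or at most 0.5 and an interval without 1. No test was possible with 1 library per group. The named members are the measured sequences, every called one, and those under the minimum past 4-fold with an interval without 1, while other names were chosen after their values were seen. The members, lists and choices were set with earlier results of these data known. The ratio step was tested on simulated reads. Python 3.11.15, numpy 2.4.6, pandas 2.3.3, scipy 1.17.1 and matplotlib 3.10.9 were used. Alternatives were other scalings, minimums, pseudocounts, ways of joining rows, name classes and thresholds.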

Additional observations from a re-analysis of the deposited data

How the results depend on the processing

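No paired analysis was possible because each group has a single library. Leaving out a sequence, and adding predicted rows of the same seed, were chosen after seeing the data. The family's ratio of 0.703 stayed below 1 in all 10 alternatives, although taking each row on its own leaves it unchanged by construction. It was 0.662 under median-of-ratios factors, 0.665 under a trimmed mean, 0.645 with the authors' normalized values, 0.646 with rows named bta-miR only, 0.663 without rows with a base substitution, 0.923 without the most abundant sequence (miR-2284x) and 0.669 without the sequence called higher. These scalings moved log2 ratios by -0.09, -0.08 and -0.13, in that order, so each moves every ratio the same way apart from rows that carry another name's values. The family's share of reads in collapsed and normal lungs was 0.0765% and 0.113% with the highest row of each sequence, 0.0674% and 0.104% with rows named bta-miR only, and 0.0768% and 0.116% without base substitutions. The median log2 ratio ranged from -0.56 to -0.15. The higher call, 1 in the values given above, became 0 with a minimum of 50 RPM, with rows named bta-miR only and without rows with a base substitution, since its sequence is then left out, and 2 with each row on its own. The lower call became 0 with a minimum of 50 RPM, with a pseudocount of 5 reads and with a ratio of 4, and 2 with a ratio of 1.5. Of 50 recomputed ratios of the measured sequences, 47 stayed within the interval given above and 0 changed sign among the called ones. Most had little room to move. The scaling shifts are smaller than the median half-width of these log2 intervals, 0.37, and the highest-row choice leaves sequences on a single row unchanged. The 3 that moved were miR-2284x at 0.555 with the authors' normalized values, and miR-2284aa-3-p3_1ss1AG at 3.91 with these values and at 4.28 with its highest row. The difference between the log2 ratios of the miR-2284 and miR-2285 sums was -0.26. Median-of-ratios factors, a trimmed mean and each row on its own leave it unchanged by construction. It was -0.27 with the authors' normalized values and -0.33 with the highest row of each sequence. Name classes were not tried for it. Without miR-2284x the miR-2284 ratio, 0.923, lay above the 0.841 of the miR-2285 family. Depth limits the 33 members under 10 RPM, for which differences were mostly not detectable.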
